A study of Rattus norvegicus with 47 samples.

Results

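Igf1, Igf2 and Igf1r, the insulin-like growth factors and their signalling receptor, were followed in prefrontal cortex of newborn rats. They were chosen by name, as the rows of the count table with the identifiers ENSRNOG00000004517, ENSRNOG00000020369 and ENSRNOG00000014187, and are 3 of its 32883 gene IDs. All 3 were among the 17135 genes that passed the filter on low counts and were tested. The names came with the list of identifiers, since the reference gene table holds no Ensembl IDs.

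The study measured RNA in 47 libraries from rats (Rattus norvegicus) on postnatal day 1, after exposure once a day during gestation. The BFR groups received 1000 µg of the brominated esters EH-TBB and BEH-TEBP, and the OPFR groups 1000 µg of triphenyl phosphate together with its isopropylated form. The FM550 groups received 2000 µg of FM550, a commercial flame retardant mixture of the FireMaster brand, and the labels give no agent for the controls. Each treatment had 6 female and 6 male libraries, except that OPFR had 5 female libraries, and the labels name neither strain nor litter. Doses differ between groups, so a difference between FM550 and the others is also a difference in dose.

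Insulin-like growth factor 1 and insulin-like growth factor 2 are secreted peptides that promote growth and survival of cells. Both signal through the type 1 receptor, a tyrosine kinase of the cell surface encoded by Igf1r, which acts through the PI3 kinase and AKT pathway and through the MAP kinase pathway. In the developing brain Igf1 is made by some neurons and by microglia, Igf2 is an imprinted gene with strong expression in the meninges, the choroid plexus and blood vessels, and Igf1r is widely expressed in neural cells.

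The sequences around the annotated starts of the 3 genes are shown as a description. Whether they bear on the levels between libraries was not tested. RefSeq promoter sequences of build GRCr8, from 250 bases before to 50 bases after the start, matched all 3 genes by symbol, with 2 starts for Igf2. They are printed 5′ to 3′ on the strand of the gene, and capitals mark GGGCGG or its reverse complement CCGCCC, the core of the GC box.
Igf1 (chr7:24172282-24172581, plus strand): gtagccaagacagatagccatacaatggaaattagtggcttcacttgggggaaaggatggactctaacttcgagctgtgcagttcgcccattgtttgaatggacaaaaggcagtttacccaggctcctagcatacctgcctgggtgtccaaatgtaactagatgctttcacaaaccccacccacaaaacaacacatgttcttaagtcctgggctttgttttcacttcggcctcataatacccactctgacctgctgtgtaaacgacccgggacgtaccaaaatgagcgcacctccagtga
Igf2, start 1 (chr1:207253931-207254230, minus strand): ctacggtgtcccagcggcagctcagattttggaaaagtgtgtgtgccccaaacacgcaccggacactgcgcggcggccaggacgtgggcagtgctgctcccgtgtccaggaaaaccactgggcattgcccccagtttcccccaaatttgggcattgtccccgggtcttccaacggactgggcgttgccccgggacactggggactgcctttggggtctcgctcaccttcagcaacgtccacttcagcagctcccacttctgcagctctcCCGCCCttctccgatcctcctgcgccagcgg
Igf2, start 2 (chr1:207250426-207250725, minus strand): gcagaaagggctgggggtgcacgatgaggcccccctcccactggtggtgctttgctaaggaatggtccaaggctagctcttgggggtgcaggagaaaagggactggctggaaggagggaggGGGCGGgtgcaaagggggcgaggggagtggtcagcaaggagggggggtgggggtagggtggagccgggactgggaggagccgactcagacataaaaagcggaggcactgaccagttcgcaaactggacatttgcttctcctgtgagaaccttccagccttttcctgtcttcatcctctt
Igf1r (chr1:130959747-130960046, plus strand): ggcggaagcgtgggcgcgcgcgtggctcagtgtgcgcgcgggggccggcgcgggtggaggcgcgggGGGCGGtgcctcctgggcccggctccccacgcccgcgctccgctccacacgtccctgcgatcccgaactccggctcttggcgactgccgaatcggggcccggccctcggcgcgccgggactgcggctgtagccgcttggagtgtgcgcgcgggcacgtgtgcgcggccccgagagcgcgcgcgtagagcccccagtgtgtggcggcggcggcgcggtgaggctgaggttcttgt

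The Igf1r window was the richest in CpG, with 50 CpG dinucleotides and 78% G and C, more CpG than 99.3% of the 33469 RefSeq promoters. The Igf1 window held 7 CpG, which is the median of all promoters, at 48.3% G and C against a median of 51.7%. The windows of Igf2 held 19 CpG at 63.3% G and C at start 1 and 7 CpG at 60.7% G and C at start 2. A search on both strands for GGGCGG, for TATAAA and for CCAAT found 1 GGGCGG or CCGCCC in each Igf2 window and in the Igf1r window and none in that of Igf1. Neither TATAAA nor CCAAT was in any of the 4 windows. Of all promoters of the same length, 33.1% held GGGCGG, 14.2% held TATAAA and 37.5% held CCAAT, counting both strands. No data here bear on binding or methylation at these sites.

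Total counts ran from 41.1 to 73.4 M reads per library. Sample titles numbered 1 to 7 are all controls, 5 males and 2 females, and they stood apart from the other 5 controls in an earlier look at these data. Between the runs of numbers, 15.2% of the genes tested were called (edgeR quasi-likelihood test with sex as a term, adjusted p below 0.05). The split was drawn from the same counts, so this share describes it and is not a separate test of it. The controls numbered 1 to 7 were shown apart, and every comparison with control was also made with a term for them and without them. OPFR females 4 and 5 had the highest TMM factors, which scale library sizes (1.10 and 1.06). OPFR values that moved without them are given both ways. In bulk tissue, fewer cells of a type and less RNA per cell cannot be told apart, and the share of meninges or vessels in each sample was not measured, because no marker gene could be matched by name. The labels do not say which libraries came from separate animals or litters, so the p-values measure only the spread between these samples.

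**Figure D1:**
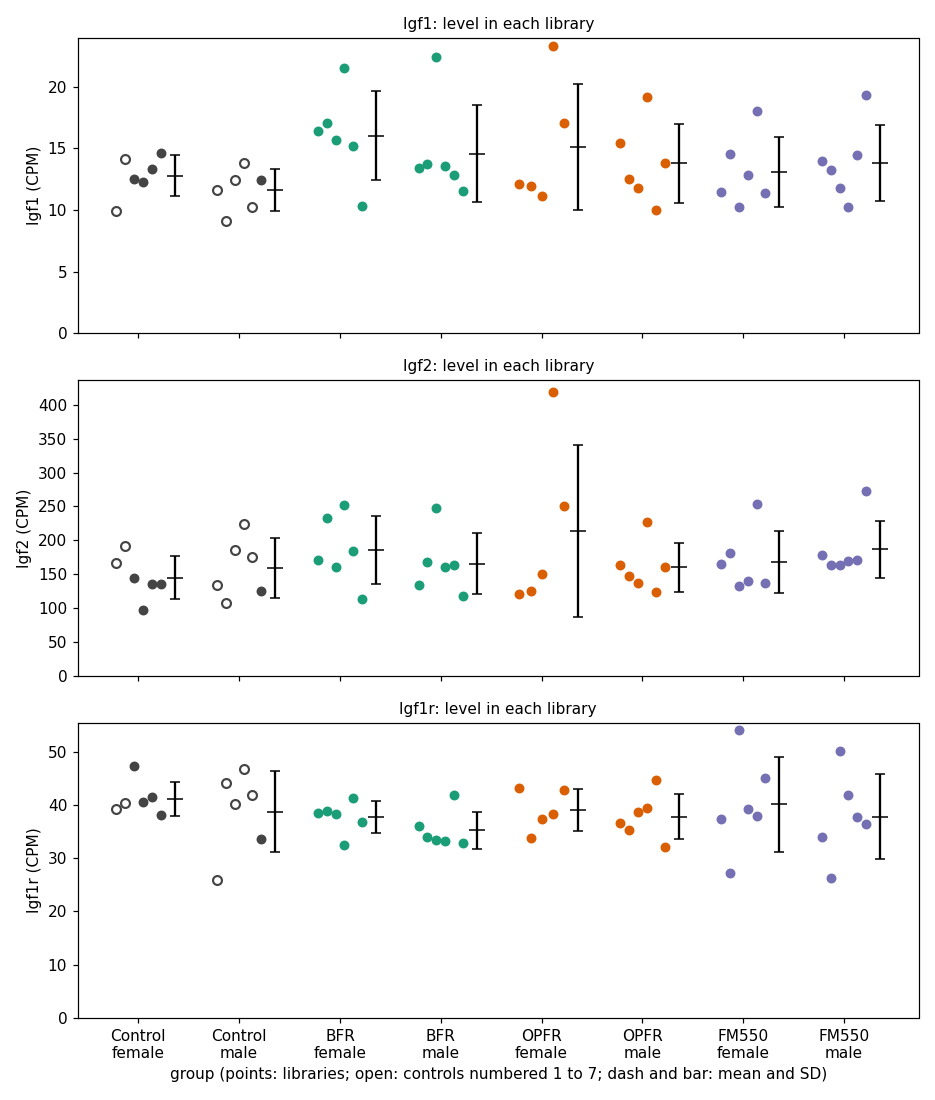
Level of Igf1, Igf2 and Igf1r in CPM (reads of a gene per M reads counted, with library sizes scaled by TMM) in each of the 47 libraries, by treatment and sex; points are libraries, dashes with bars are group means with their SD and open symbols are the controls numbered 1 to 7. The groups overlap for each gene, and OPFR female 4 is the highest library for Igf1 (23.3 CPM) and for Igf2 (419.9 CPM).

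Igf1 was measured from 504 to 1531 reads per library. In control females the lowest, median and highest levels were 9.88, 12.9 and 14.6 CPM, and in control males 9.10, 12.0 and 13.8 CPM. BFR females ran from 10.3 through a median of 16.0 to 21.5 CPM, and BFR males from 11.5 through 13.5 to 22.4 CPM. Exposed and control groups overlapped in both sexes, and each of the BFR, OPFR and FM550 groups reached higher than any control. OPFR females measured 12.1, 11.9, 11.1, 23.3 and 17.1 CPM, so that 3 libraries lay within the range of the control females and 2 above every control. OPFR males ran from 10.0 through a median of 13.1 to 19.2 CPM. The FM550 groups ran from 10.2 through 12.2 to 18.0 CPM in females and from 10.3 through 13.6 to 19.3 CPM in males.

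As a mean, Igf1 stood at 12.8 ± 1.7 CPM among female controls and at 11.6 ± 1.7 CPM among male controls (SD, n = 6 each). The highest mean was that of BFR females, 16.0 ± 3.6 CPM (SD, n = 6), followed by OPFR females with 15.1 ± 5.1 CPM (SD, n = 5) and BFR males with 14.6 ± 3.9 CPM (SD, n = 6). FM550 males, OPFR males and FM550 females followed at 13.8 ± 3.1, 13.8 ± 3.2 and 13.1 ± 2.8 CPM (SD, n = 6 each). Neighbours in this order differed by less than the SD within a group. Controls numbered 1 to 7 had 11.6 ± 2.0 CPM (SD, n = 7) and the other controls 13.0 ± 0.96 CPM (SD, n = 5), a log2 difference of -0.12 ± 0.13 (SE; edgeR adjusted p = 0.614).

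Averaged over the sexes, Igf1 in the BFR groups was 0.33 ± 0.13 above control on the log2 scale (SE; 95% interval 0.07 to 0.58; edgeR adjusted p = 0.0770), which did not pass the threshold of 0.05. The same difference was 0.25 ± 0.18 with a term for controls 1 to 7 (edgeR adjusted p = 0.999) and 0.27 ± 0.21 without them (edgeR adjusted p = 1.00). It passed the threshold when OPFR females 4 and 5 were left out (edgeR adjusted p = 0.0474), when OPFR libraries 31 to 35 were left out (edgeR adjusted p = 0.0353) and when BFR female 6 was left out (edgeR adjusted p = 0.0339). OPFR libraries enter this difference only through the shared fit and its estimate of spread. Without them the value stayed at 0.33 and the SE was 0.11. It did not pass with only the groups compared (edgeR adjusted p = 0.0510) or in DESeq2 (adjusted p = 0.0535). For OPFR the averaged difference was 0.24 ± 0.13 (edgeR adjusted p = 0.178). It was 0.14 without OPFR female 4, 0.0573 without both OPFR females 4 and 5, and 0.0216 when libraries 31 to 35 were left out. For FM550 it was 0.14 ± 0.13 (edgeR adjusted p = 0.552), 0.0844 without FM550 male 6 and 0.0870 without FM550 female 5. Within a sex, Igf1 lay between 0.03 and 0.33 above control in the 6 comparisons, none called, and in 5 of them 1 library moved the value by over 1.5 times. In males, the BFR difference of 0.33 was 0.17 without BFR male 3, the FM550 difference of 0.25 was 0.14 without FM550 male 6 and the OPFR difference of 0.25 was 0.13 without OPFR male 4. The FM550 female difference of 0.03 was -0.0809 without FM550 female 5. The OPFR female difference of 0.24 ± 0.19 (SE) was 0.03 without OPFR female 4 and -0.13 without OPFR females 4 and 5.

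Igf2 had 4640 to 27639 reads per library and the widest spread of the 3 genes. In RefSeq (GRCr8) its span overlaps those of Mir483 and LOC102548568. Whether reads of these genes enter its counts is not known, since overlap of exons or strands was not checked. The sources used here also name neither the build nor the strand setting of the counting. In control females the lowest, median and highest levels were 96.6, 139.6 and 191.3 CPM, and in control males 107.4, 155.1 and 224.6 CPM. OPFR females measured 120.1, 125.5, 149.6, 419.9 and 251.2 CPM, the fourth being the highest of all 47 libraries. Its TMM factor of 1.10 was also the highest of all. BFR females ran from 113.9 through a median of 177.4 to 252.4 CPM and BFR males from 117.1 through 162.1 to 248.0 CPM. OPFR males ran from 122.8 through 154.2 to 227.5 CPM. FM550 females ran from 131.7 through 152.8 to 253.0 CPM and FM550 males from 164.0 through 169.9 to 273.0 CPM. Each exposed group overlapped the controls of its sex, and in each exposed group the highest library was above every control. For FM550 males the overlap came from the controls numbered 1 to 7. All 6 FM550 males were above the other 5 controls (4 females and 1 male), which reached 143.8 CPM. The share of all genes that separate in this way was not counted, so the separation cannot be called particular to Igf2.

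The mean of Igf2 was 145 ± 32 CPM for female controls, 159 ± 44 CPM for male controls, 186 ± 50 CPM in BFR females, 165 ± 45 CPM in BFR males, 160 ± 37 CPM in OPFR males, 168 ± 46 CPM in FM550 females and 187 ± 43 CPM in FM550 males (SD, n = 6 each). OPFR females had 213 ± 127 CPM (SD, n = 5), and 132 ± 16 CPM without OPFR females 4 and 5 (SD, n = 3). The controls outside numbers 1 to 7 measured 143.8, 96.6, 135.3 and 134.8 CPM in the 4 females and 125.4 CPM in the male. The 7 controls numbered 1 to 7 measured 134.2, 107.4, 185.5, 224.6 and 175.9 CPM in the males and 165.9 and 191.3 CPM in the females. Their means were 169 ± 39 CPM (SD, n = 7) and 127 ± 18 CPM for the other controls (SD, n = 5). The log2 difference between the runs was 0.46 ± 0.18 (SE; edgeR adjusted p = 0.109), and 0.48 without control male 2, where it passed the threshold (edgeR adjusted p = 0.0323). With the higher 7 controls in the mean, the control level of Igf2 was higher than in the other 5 alone.

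With all libraries, Igf2 in OPFR females was 0.56 ± 0.24 above control females (SE; 95% interval 0.07 to 1.05; edgeR adjusted p = 0.195). It was 0.73 ± 0.26 with a term for controls 1 to 7 (edgeR adjusted p = 0.147) and 0.75 ± 0.28 without them (edgeR adjusted p = 0.214). Without OPFR female 4 it was 0.16 and without OPFR females 4 and 5 it was -0.14 (edgeR adjusted p = 0.999). In the other within-sex comparisons it was 0.36 ± 0.23 for BFR females, 0.22 ± 0.23 for FM550 females, 0.06 ± 0.23 for BFR males, 0.0093 ± 0.23 for OPFR males and 0.23 ± 0.23 for FM550 males (SE), none called. With a term for controls 1 to 7 the same values were 0.53 ± 0.25, 0.39 ± 0.25, 0.44 ± 0.32, 0.39 ± 0.32 and 0.62 ± 0.32 (SE), none called by edgeR. Single libraries also moved them: the FM550 difference was 0.0639 in females without FM550 female 5 and 0.0919 in males without FM550 male 6, and the BFR male difference was -0.0959 without BFR male 3. Averaged over the sexes, the BFR, OPFR and FM550 groups were above control by 0.21, 0.28 and 0.22. Left without single libraries, the BFR value fell to 0.13 (BFR male 3), the OPFR value to 0.0817 (OPFR female 4) and the FM550 value to 0.15 (FM550 female 5), and without OPFR females 4 and 5 the OPFR value was -0.0659. With a term for controls 1 to 7 they were 0.49, 0.56 and 0.50, and without those controls 0.48, 0.55 and 0.48. All 3 averaged values thus moved up by over 1.5 times, and their smallest edgeR adjusted p under the term was 0.383.

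**Figure D2:**
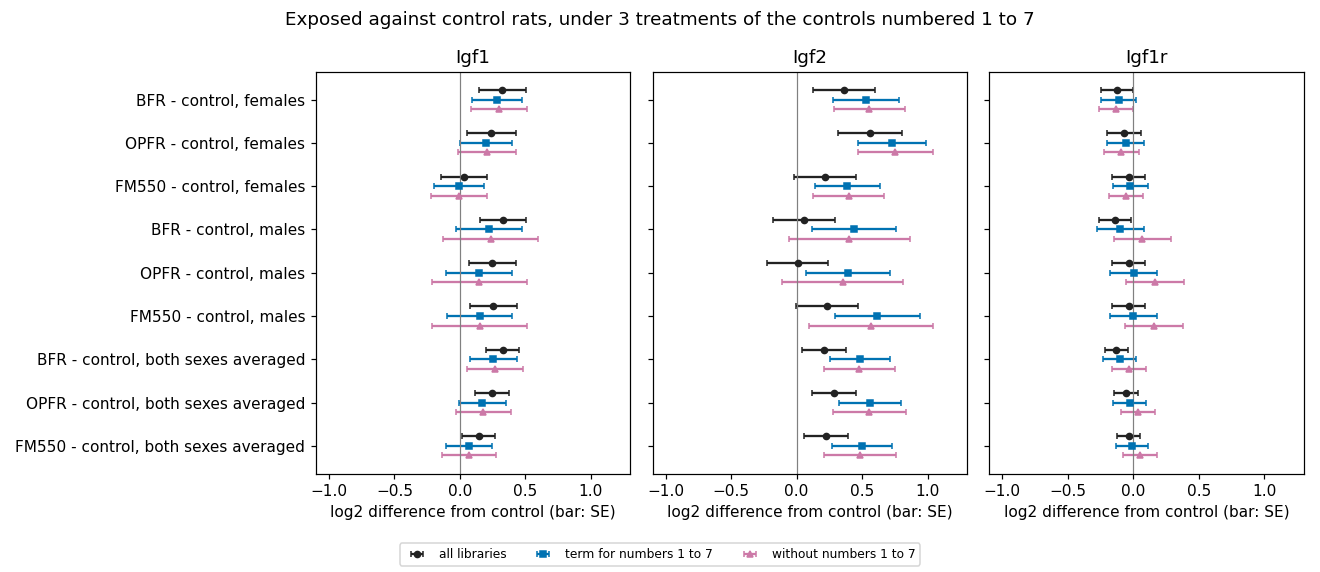
log2 difference from control with its SE (bars) for each member, treatment and sex, from the edgeR fit of all libraries, the fit with a term for the controls numbered 1 to 7 and the fit without them. Igf2 sits farther above 0 when those controls are modelled or left out (OPFR females 0.56, 0.73 and 0.75), whereas Igf1r lies between -0.14 and 0.17 in all 3 fits.

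Igf1r, the receptor, had 1442 to 3308 reads per library, and the same limit holds for its overlap with Pgpep1l and LOC134483685. The lowest, median and highest levels were 38.0, 40.4 and 47.3 CPM among female controls and 25.9, 41.0 and 46.7 CPM among male controls. BFR females ran from 32.5 through 38.3 to 41.4 CPM and BFR males from 32.9 through 33.7 to 41.9 CPM. OPFR females measured 43.2, 33.7, 37.4, 38.3 and 42.7 CPM, and OPFR female 4, the highest library for both ligands, ranked 25 of 47 for the receptor. OPFR males ran from 32.0 through 37.6 to 44.6 CPM. FM550 held both the highest library, at 54.0 CPM in a female, and low ones, at 27.3 CPM in a female and 26.3 CPM in a male, while the lowest of all was control male 1.

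The mean of Igf1r was 41.1 ± 3.2 CPM for female controls, 38.7 ± 7.7 CPM for male controls, 37.7 ± 3.0 CPM in BFR females, 35.2 ± 3.5 CPM in BFR males, 37.8 ± 4.2 CPM in OPFR males, 40.1 ± 8.9 CPM in FM550 females and 37.8 ± 8.0 CPM in FM550 males (SD, n = 6 each), and 39.1 ± 3.9 CPM in OPFR females (SD, n = 5). Controls numbered 1 to 7 had 39.7 ± 6.6 CPM (SD, n = 7) and the others 40.2 ± 5.0 CPM (SD, n = 5), a log2 difference of 0.05 ± 0.15 (SE; edgeR adjusted p = 0.863). Igf1r was lower in all 6 within-sex comparisons, by values between -0.14 and -0.04 on the log2 scale, none called. Averaged over the sexes it was -0.13 ± 0.09 in the BFR groups (SE; 95% interval -0.31 to 0.04), -0.06 ± 0.09 in OPFR (SE; -0.24 to 0.13; -0.0764 without OPFR females 4 and 5) and -0.04 ± 0.09 in FM550 (SE; -0.21 to 0.14). Without controls 1 to 7 the sign turned in BFR males (0.07), FM550 males (0.16), OPFR males (0.17), OPFR averaged (0.04) and FM550 averaged (0.05). The control males were then 1 library, control male 6 at 33.6 CPM, on which the averaged values also lean. These turns of sign therefore cannot be told apart from the level of that library.

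With all libraries in the fit, none of the 3 genes was called in any comparison with control. Igf1 in BFR averaged was called in the 3 fits with libraries left out that are given above. For the 18 within-sex tests the smallest edgeR adjusted p was 0.195, 1 test had an unadjusted p below 0.05 (Igf2 in OPFR females), and DESeq2 called 0. For the 9 tests averaged over the sexes the smallest edgeR adjusted p was 0.0770, 1 had an unadjusted p below 0.05 (Igf1 in BFR), and DESeq2 called 0. The background over all 17135 genes was 0% called in BFR and in FM550 females, 3.1% in OPFR females, 9.95% in BFR males, 12.5% in OPFR males and 11.8% in FM550 males. Averaged over the sexes, BFR had 12.4% called, OPFR 19.3% and FM550 8.13%. With a term for controls 1 to 7, edgeR called 1.42% in OPFR females, 0.525% for OPFR averaged and 0% in the other 7 comparisons with control. It called 0 of the members, with an unadjusted p below 0.05 in 2 of the 18 within-sex tests and 3 of the 9 averaged ones. Without those controls it called 0.414% in OPFR females, 0.0233% for OPFR averaged and 0% in the other 7. Again it called 0 of the members, with an unadjusted p below 0.05 in 2 of the 18 and 0 of the 9 tests. With backgrounds of at most 19.3%, 0 calls among 3 genes is near what all genes gave. The 3 treatments share their controls, so their values are side by side and not independent.

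The difference from control was not found to differ between sexes for any member. Of 9 interaction tests none was called by edgeR or DESeq2, none had an unadjusted p below 0.05, and the background was 0% for all 3 treatments, also with the term for controls 1 to 7 and without them. The largest was Igf2 for OPFR, with a male minus female difference of -0.55 ± 0.34 (SE; edgeR adjusted p = 0.667), which was 0.15 without OPFR females 4 and 5. When exposed groups were compared with each other, controls entered only through the shared fit and its estimate of spread. Of 9 member tests 0 were called by edgeR or DESeq2 and none had an unadjusted p below 0.05. The background was 4.75% of genes for OPFR against BFR, 0.204% for FM550 against BFR and 0.00584% for FM550 against OPFR. With a term for controls 1 to 7 these shares were 6.61%, 0.794% and 0.368%, and again 0 member tests were called by edgeR. Igf1 in FM550 against BFR was -0.18 ± 0.13 (SE), the largest of the 9 with all libraries. Without OPFR females 4 and 5 the largest was Igf2 in FM550 against OPFR, at 0.29 ± 0.15 (SE), and Igf1 in OPFR against BFR, at -0.27 ± 0.13 (SE), had an unadjusted p below 0.05 (edgeR adjusted p = 0.267). Without OPFR libraries 31 to 35 these were 0.34 ± 0.17 (edgeR adjusted p = 0.943) and -0.31 ± 0.14 (edgeR adjusted p = 0.252), both with an unadjusted p below 0.05 and neither called. Females were 0.08 above males for each of the 3 genes on the log2 scale, none called by edgeR or DESeq2 and none with an unadjusted p below 0.05, against a background of 0.128%. Without OPFR females 4 and 5, females were above males for 1 of the 3 genes and below for 2.

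The spread within groups was wide for the ligands. Its SD on the log2 CPM scale was 0.42 for Igf2, 0.31 for Igf1 and 0.22 for Igf1r, against a median of 0.19 over all genes tested. Among the 1000 genes nearest in mean level, 99.8% had a smaller SD than Igf2, 92.1% than Igf1 and 88.8% than Igf1r. The coefficient of variation of Igf1 was 14.2% in the 12 controls and 24.4% in the 35 exposed libraries, that of Igf2 24.7% and 33.8%, and that of Igf1r 14.4% and 14.7%. For Igf2 it was 26.7% in BFR, 24.4% in FM550 and 48.3% in OPFR, and 22.0% in OPFR without females 4 and 5. For Igf1 it was 23.9% in BFR, 21.2% in FM550 and 28.0% in OPFR, and 21.1% in OPFR without those females. Whether these coefficients differ between control and exposed was not tested.

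Igf1 and Igf2 rose and fell together across libraries. Over all 47 the Pearson r of log2 CPM was 0.79 and Spearman's rho 0.69 (permutation p = 1e-05 for each, the smallest 100000 resamples can give; 6e-05 adjusted over 6 relations), and r was 0.74 without the 2 libraries farthest in Igf1. Within the libraries numbered 8 to 47 r was 0.85 and rho 0.76 (n = 40, permutation p = 1e-05 for each, adjusted 6e-05), and r was 0.80 without the 2 farthest. Within numbers 1 to 7 r was 0.74 and rho 0.86 (n = 7, exact permutation p = 0.0560 and 0.0238, adjusted 0.168 and 0.133), and r was 0.52 without the 2 farthest. In BFR r was 0.93 and rho 0.90 (n = 12, permutation p = 2e-05 and 0.00023, adjusted 0.00012 and 0.00138), and r was 0.87 without the 2 farthest. In OPFR r was 0.93 and rho 0.83 (n = 11, permutation p = 5e-05 and 0.00255, adjusted 0.0003 and 0.0153), and r was 0.85 without the 2 farthest. In FM550 r was 0.87 and rho 0.83 (n = 12, permutation p = 0.00062 and 0.00177, adjusted 0.00372 and 0.0106), and r was 0.56 without the 2 farthest. In the 12 controls r was 0.27 and rho 0.36 (permutation p = 0.403 and 0.255, adjusted 0.843 and 0.765), and whether they differ from the exposed groups was not tested. Without OPFR females 4 and 5 r was 0.75 over the other 45 libraries. Taken as deviations from the 8 group means, r was 0.82.

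No relation of Igf1r with either ligand passed the test. Over 47 libraries r was -0.25 and rho -0.29 with Igf1 (permutation p = 0.0888 and 0.0448, adjusted 0.267 and 0.134). With Igf2, r was -0.07 and rho -0.06 (permutation p = 0.650 and 0.691, adjusted 0.780 and 0.821). Without the 2 farthest libraries r was -0.24 and -0.06. Without OPFR females 4 and 5, r with Igf1 was -0.30 and rho -0.34 (permutation p = 0.0444 and 0.0221, adjusted 0.133 and 0.0663). Within FM550, r with Igf1 was -0.48 and rho -0.66 (n = 12, permutation p = 0.116 and 0.0230, adjusted 0.347 and 0.0689), and r was -0.73 without the 2 farthest. With Igf2 in FM550, r was -0.34 and rho -0.55 (permutation p = 0.277 and 0.0650, adjusted 0.415 and 0.130), and r was -0.62 without the 2 farthest. In the controls, BFR and OPFR, r with Igf1 was 0.0064, -0.18 and -0.02, and 0.22, 0.40 and -0.13 without the 2 farthest. The r with Igf2 in these was 0.23, -0.05 and 0.06. Over 47 libraries total counts gave r of -0.08 with Igf1, 0.0082 with Igf2 and -0.15 with Igf1r (permutation p = 0.617, 0.956 and 0.301). In the controls alone, total counts gave r of -0.58 and rho of -0.40 with Igf1 (n = 12, permutation p = 0.0496 and 0.201, adjusted 0.298 and 0.765). The r of total counts with Igf1 was -0.22 in BFR, -0.19 in OPFR and -0.04 in FM550.

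**Figure D3:**
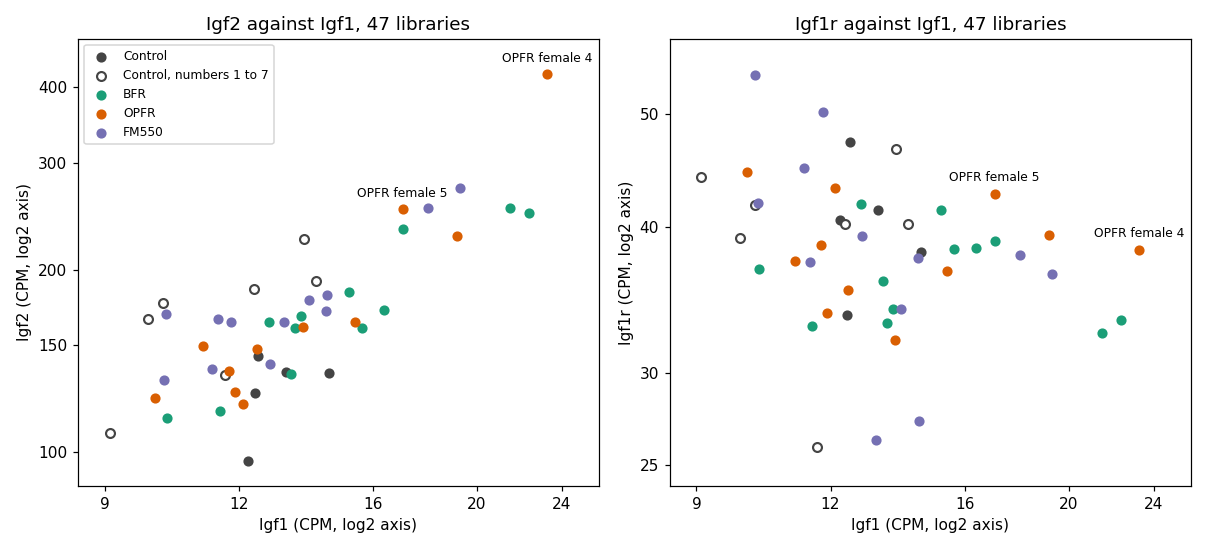
Igf2 (left) and Igf1r (right) against Igf1 in CPM on log2 axes, 47 libraries coloured by treatment with the controls numbered 1 to 7 as open circles. Igf2 climbs with Igf1 (r = 0.79) and Igf1r does not (r = -0.25); OPFR females 4 and 5 are named.

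The 8 libraries highest in Igf1 were the same 8 that were highest in Igf2, a count chosen after the values were seen. They were BFR females 2 and 4, BFR male 3, OPFR females 4 and 5, OPFR male 4, FM550 male 6 and FM550 female 5, so 0 of the 12 controls and 8 of the 35 exposed libraries. The lowest of them had 17.1 CPM of Igf1 and 227.5 CPM of Igf2, and the next library had 16.4 CPM of Igf1 and 224.6 CPM of Igf2, the latter in control male 4. Igf1r in these 8 lay between 32.5 and 42.7 CPM, within the range of the rest.

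The genes with the likest pattern, by Pearson r of log2 CPM over 47 libraries among the 17134 other genes, were ENSRNOG00000004554 (r = 0.90, rho = 0.87) and ENSRNOG00000010362 (r = 0.90, rho = 0.88) for Igf1. For Igf2 they were ENSRNOG00000013720 (r = 0.90, rho = 0.85) and ENSRNOG00000042620 (r = 0.90, rho = 0.81). For Igf1r they were ENSRNOG00000008691 (r = 0.75, rho = 0.69) and ENSRNOG00000032590 (r = 0.73, rho = 0.70). Over the 40 libraries outside numbers 1 to 7 these r values were 0.90, 0.91, 0.91, 0.92, 0.74 and 0.68 in the same order. The 4 genes nearest the ligands peaked in OPFR female 4: ENSRNOG00000004554 measured 91.4 CPM there, against at most 67.4 CPM in the 45 libraries other than OPFR females 4 and 5. That library was among the 47 used to pick these genes, so the shared peak is not a separate result. Igf2 ranked 118 of 17134 by likeness to Igf1, and Igf1 ranked 82 by likeness to Igf2. An r above 0.8 was reached by 105 genes with Igf1, 77 with Igf2 and none with Igf1r. The first 2 lists shared 42 genes, 40% of the Igf1 list and 54.5% of the Igf2 list. Genes are not independent replicates, and these values describe the libraries.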

How the data were processed

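The 47 RNA-seq libraries came from newborn rat prefrontal cortex and fell into 8 groups, treatment by sex. The authors deposited raw counts of reads for each gene ID, in a single table. The tools listed are featureCounts, FastQC and DESeq2, per the submitters' processing notes, with no version. Which aligner, build and strand setting were used is not given in the sources used here. The table also held 15 entries naming no gene, with no counts. Columns were matched to samples by the number in the title, and replicate numbers follow record order and pair nothing.

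Tests used edgeR 4.0.16 (R 4.3.3): genes were kept by filterByExpr (minimum count 10, minimum total 15), TMM scaling, 1 quasi-likelihood fit of 8 group means and contrasts in it, all two-sided. Calls needed an adjusted p (Benjamini-Hochberg, 17135 genes) under 0.05. CPM came from TMM-scaled library sizes, and log2 CPM used a prior count of 2. Alternatives were DESeq2 1.42.0 (a Wald test), only the groups compared, no low-count filter, RLE size factors, a term for controls numbered 1 to 7, leaving those out, leaving out OPFR females 4 and 5 or OPFR libraries 31 to 35, and leaving out each library in turn. The procedure was tested on simulated data.

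The members, the lists and the libraries set apart were chosen with earlier results of these data known. Genes named are the 3 members and the 2 likest IDs for each. The RefSeq gene table (GRCr8) matched 0 of the IDs, so lists of pathway and cell type marker genes given by symbol were not used here.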

Additional observations from a re-analysis of the deposited data

Results flagged for a closer look

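In 4 of the 24 sets of libraries (3 genes by 8 groups), the highest library was set off from the rest of its group by more than Dixon's 95% limit, which chance exceeds in about 1 in 20 groups. Igf1 in BFR male 3 was 22.4 CPM, where the next BFR male had 13.7 CPM. Igf2 in FM550 male 6 was 273 CPM, where the next had 178 CPM. For the receptor, Igf1r in control female 3 was 47.3 CPM (next 41.4 CPM) and in BFR male 5 it was 41.9 CPM (next 36.0 CPM). BFR male 3 and FM550 male 6 are both among the 8 libraries highest in Igf1 and in Igf2. OPFR female 4, the highest library for both ligands, was not set off by this limit in its group of 5.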

How the results depend on the processing

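Apart from leaving out single libraries, 230 alternative values kept direction and side of the threshold, 18 turned sign and 2 newly passed it. With 1 library left out, 593 values kept both, 19 turned sign and 2 newly passed. No value that turned sign was called. These counts take single values only from the comparisons with control, the runs of controls and the Igf2 sex by OPFR interaction. The other families of tests entered as a number of members called, so turns of sign within them are not counted. Igf2 in FM550 against OPFR, for example, was -0.06 with all libraries and 0.29 without OPFR females 4 and 5. Igf1 in BFR averaged over sexes passed at 0.33 (log2) without OPFR females 4 and 5 and at 0.33 without OPFR libraries 31 to 35, and ran from 0.25 to 0.38 over single libraries. With the term for controls 1 to 7, the sign turned for Igf1 in FM550 females (-0.0085) and for Igf1r in FM550 males (9.67e-04) and OPFR males (0.0015). Without those controls it turned for Igf1 in FM550 females (-0.0089) and for Igf1r in BFR males (0.0693), FM550 males (0.16), OPFR males (0.17), FM550 averaged (0.0504) and OPFR averaged (0.0378). Without OPFR females 4 and 5, or without OPFR libraries 31 to 35, it turned for Igf1 in OPFR females (-0.13 and -0.14), Igf2 in OPFR females (-0.14 and -0.15), Igf2 in OPFR averaged (-0.0659 and -0.12) and the Igf2 sex by OPFR interaction (0.15 and 0.0498). Without OPFR libraries 31 to 35, Igf2 in OPFR males was -0.0954. Over single libraries left out, Igf1 in FM550 females ran from -0.0809 to 0.0940. Igf2 ran from -0.0959 to 0.18 in BFR males, from -0.12 to 0.13 in OPFR males and from 0.37 to 0.49 between the runs of controls. Igf1r ran from -0.0882 to 0.0084 in FM550 averaged, from -0.14 to 0.0537 in FM550 females, from -0.14 to 0.0485 in FM550 males, from -0.13 to 0.0238 in OPFR males and from -0.0681 to 0.0812 between the runs of controls. Causes were not tested. No paired analysis was possible because replicate numbers only follow record order. Without controls 1 to 7, 1 control male remains, assumed to vary like the other groups.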
